A study of Arabidopsis thaliana with 8 samples.

Results

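The TRICHOME BIREFRINGENCE-LIKE (TBL) genes of Arabidopsis thaliana were followed in whole seedlings and in leaf protoplasts, in both of which the transcription factor ORE1 was to be raised. Members were taken by name, as every probe set (a group of array probes for a transcript) with exactly 1 gene symbol in the platform's probe table that is TBL followed by a number, or TBR. This gave 22 genes, each with 1 probe set, out of 13513 probe sets with 1 symbol and 22746 probe sets without controls. No probe set carries the symbol TBR. RefSeq lists 46 genes of the family, and those without a probe set in the table were not analysed here.

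Most TBL proteins of known function lie in the Golgi membrane, where they move acetyl groups onto the sugars of wall polysaccharides before these are secreted. Different members act on xylan, mannan, xyloglucan or pectin, and the acetyl groups affect how the polymers fold, bind cellulose and yield to enzymes. The founding member, TBR, is needed for normal cellulose and pectin in trichomes and stems. ORE1, a NAC factor, promotes leaf senescence, during which leaf cells are dismantled and their nutrients exported.

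Seedlings 2 weeks old, of the Col-0 line ORE1-IOE, were shaken in liquid medium for 2 h with 10 µM estradiol to induce ORE1, or with 0.1% ethanol as mock treatment. Mesophyll cell protoplasts from Col-0 plants 5 weeks old either expressed a 35S:ORE1 construct for 6 h, driven by a viral promoter active in most cells, or were labelled WT. Each of these 4 groups had 2 Affymetrix arrays. For the WT protoplasts no time and no mock transfection is given, so effects of ORE1, transfection and culture time cannot be told apart there. How many independent ORE1-IOE lines were used, and whether the arrays come from separate plants or preparations, is not given in the sources used here, so p-values may measure technical spread only.

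Values are the deposited log2 expression values. Array medians were 6.71 to 6.79 in seedlings and 3.34 to 3.54 in protoplasts, where 39.8% to 41.6% of the probe sets on an array were no more than 0.1 above its minimum. Levels are therefore never set side by side between the systems as amounts. Same-numbered protoplast arrays share 1 lowest value and hold 13500 (number 1) and 11130 (number 2) exactly equal values, of which 6099 and 4275 lie above that lowest value, so the number may stand for a processing batch, and values with the number as a block or within a number are given beside the results. Of the 21 mesophyll markers in the list used, 5 have a listed probe set. In WT protoplasts RCA, which encodes Rubisco activase, read 9.39 and 9.41 and the antenna protein gene LHCB4.1 read 8.15 and 8.16. PSAN, of photosystem I, at 2.28 and 4.00 and PORB, of chlorophyll synthesis, at 2.38 and 3.39 lay close to the lowest values of 2.19 and 2.18. The guard cell lineage genes FAMA, MUTE and SPCH and the root hair genes EXPA7 and EXPA18 lay at the lowest value on all 4 protoplast arrays. Their mock means in seedlings were 4.75 to 6.89. Of all probe sets with seedling means from 5 to 7, 45.1% lay at the lowest protoplast value, and of those under 5, 81.4%. The phloem gene SWEET11, with a mock mean of 10.69 in seedlings, read 2.19 and 2.18 in WT protoplasts.

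Of the 22 TBL genes, 15 were no more than 0.1 above the minimum of every protoplast array, called the lowest value from here on. For these neither a level nor a change could be measured in protoplasts. The 7 above it were TBL16, TBL18, TBL23, TBL32, TBL37, TBL41 and TBL45, though the probe set of TBL32 may also detect another gene. The share at the lowest value was 68.2%, against 36.2% of all probe sets without controls. The same 22 genes read between 4.05 and 10.92 as mock means in seedlings. Among genes with a seedling mean of 7 or more, 3 of 8 TBL genes (37.5%) were at the lowest protoplast value, against 6.61% of all such probe sets. These 3 were TBL25, TBL26 and TBL38. Seedling means between 5 and 7 went with the lowest protoplast value for 6 of 8 TBL genes and for 45.1% of all probe sets, and means under 5 for 6 of 6 and 81.4%. No test was made of these shares. Fewer expressing cells, less RNA per cell and the processing of the arrays cannot be told apart in such bulk samples.

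**Figure D1:**
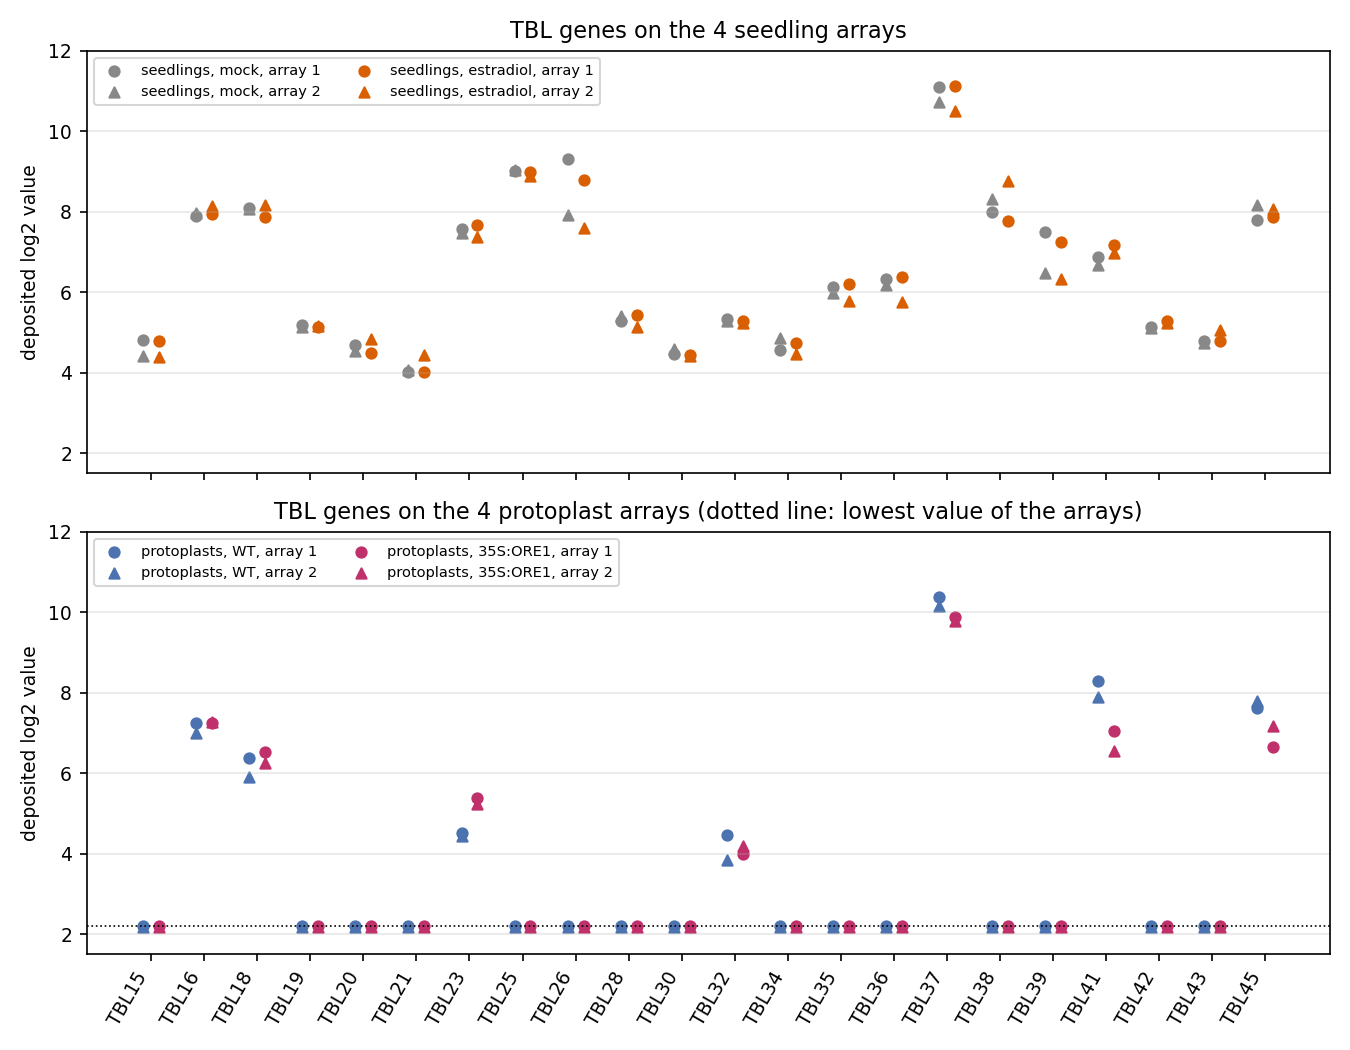
Deposited log2 values (y axis) of the 22 TBL genes (x axis) on the 4 seedling arrays (upper panel) and the 4 protoplast arrays (lower panel); each point is 1 array, circles for number 1 and triangles for number 2. In protoplasts 15 genes sit on the dotted line at the lowest value and 7 lie above it, while in seedlings the points of most genes lie close together and those of TBL26, TBL39 and TBL38 are spread out, from 7.60 to 9.31 for TBL26.

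The first comparison asked whether TBL genes respond within 2 h of estradiol in seedlings. No tested member passed. Of the 22 members, 16 were tested, having a log2 value of 5 or more on 2 or more arrays, and none of the 16 passed limma's moderated test across 17388 probe sets (adjusted p = 1 for each, n = 2 arrays per group). The background was as low, with 0.00575% of all tested probe sets called. At an unadjusted p under 0.05 there were 0 of 16 members, or 3 with the replicate number as a block (TBL26, TBL39 and TBL41, none passing after adjustment). Of all 17388 tested probe sets 718 were under it, or 3033 with the block, so 18.8% of members with the block stands beside 17.4% of all. The median change of the tested members was -0.05 on the log2 scale, against 0.02 for all tested probe sets. The 6 members below the filter, TBL15, TBL20, TBL21, TBL30, TBL34 and TBL43, differed in mean by -0.11 to 0.20.

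Genes of mannan acetylation differed from each other in spread. TBL25, one of the mannan O-acetyltransferase genes, read 9.01 and 9.05 in mock and 8.98 and 8.88 in estradiol seedlings, so its estradiol arrays lay just below the mock arrays. Its change was -0.10 ± 0.11 (SE, log2). TBL26, of the same group, read 9.31 and 7.92 in mock and 8.80 and 7.60 in estradiol arrays. Both groups spanned more than 1 log2 unit and overlapped, with both number 1 arrays above both number 2 arrays. The change was -0.42 ± 0.53 (SE, log2). It was -0.52 within number 1 and -0.32 within number 2, with an SE of 0.07 and a limma adjusted p of 0.217 once the number was a block. TBL23, the third mannan member, read 7.58 and 7.47 in mock against 7.67 and 7.38 in estradiol arrays, a change of 0.00 ± 0.14 (SE, log2).

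The xylan O-acetyltransferase genes TBL28, TBL30, TBL32, TBL34 and TBL35 had mock means from 4.53 to 6.05 and differences in mean from -0.11 to -0.04. The 95% intervals of the 3 that were tested all held 0 and reached from -0.56 to 0.47. TBL28 and TBL30 are next to each other among the protein-coding genes of the reference table. TBL28 read 5.28 and 5.40 in mock and 5.44 and 5.13 in estradiol arrays, and TBL30 read 4.48 and 4.59, and 4.44 and 4.43. The probe set of TBL32 carries the suffix that marks probes able to detect more than 1 related transcript, so its values may include another gene.

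Members to which no role is assigned here moved as little in seedlings. TBL37 read 11.11 and 10.73 in mock and 11.13 and 10.50 in estradiol arrays, overlapping groups with a change of -0.11 ± 0.24 (SE, log2). TBL41 read 6.87 and 6.69 in mock and 7.17 and 6.97 in estradiol arrays. Its groups did not overlap, and the change was 0.29 ± 0.22 (SE, log2), or 0.30 within number 1 and 0.29 within number 2. TBL42 read 5.15 and 5.12 in mock and 5.29 and 5.24 in estradiol arrays, also without overlap, a change of 0.13 ± 0.10. TBL36 read 6.33 and 6.18 against 6.37 and 5.77, a change of -0.19 ± 0.20, with groups that overlapped. TBL45 (7.80 and 8.18 against 7.86 and 8.06), TBL16 (7.90 and 7.97 against 7.95 and 8.15) and TBL18 (8.09 and 8.07 against 7.87 and 8.18) overlapped as well. Groups failed to overlap for 3 of the 16 tested members (TBL41 and TBL42 higher, TBL25 lower), fewer than the 32.5% of all tested probe sets that did so. The tandem neighbours TBL21 and TBL19 had mock means of 4.05 and 5.18 and differed by 0.20 and -0.02. TBL38, whose product removes acetyl groups from pectin in seed mucilage cells, read 7.99 and 8.32 in mock and 7.77 and 8.76 in estradiol arrays.

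The arrays bound what could have been seen. The 95% interval of the seedling change ran from -1.70 to 0.86 for TBL26 and from -1.17 to 0.76 for TBL39, and lay between -0.70 and 0.86 for the other tested members. The spread is shared with the protoplast arrays in 1 fit, and members at the lowest value there have next to no spread in protoplasts. Their intervals may therefore be wider from seedlings alone, which are not given here.

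Within seedlings, most tested TBL genes differed more between the numbers of the arrays than between treatments. TBL26 was 1.29 higher on the number 1 arrays and TBL39 was 0.96 higher, both on the log2 scale, in mock and estradiol seedlings alike. TBL39 read 7.50 and 6.49 in mock and 7.25 and 6.34 in estradiol arrays. TBL38 differed the other way, by -0.66. The number difference exceeded the treatment difference in size for 12 of the 16 tested members, or 75.0%, against 59.1% of all tested probe sets. A number difference at least as large as that of TBL39 was shown by 1.64% of all tested probe sets. TBL26 and TBL39 themselves set this limit, so their count of 2 among the 16 members is fixed by it. What differed between number 1 and number 2 seedlings is not given in the sources used here and was not tested.

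**Figure D2:**
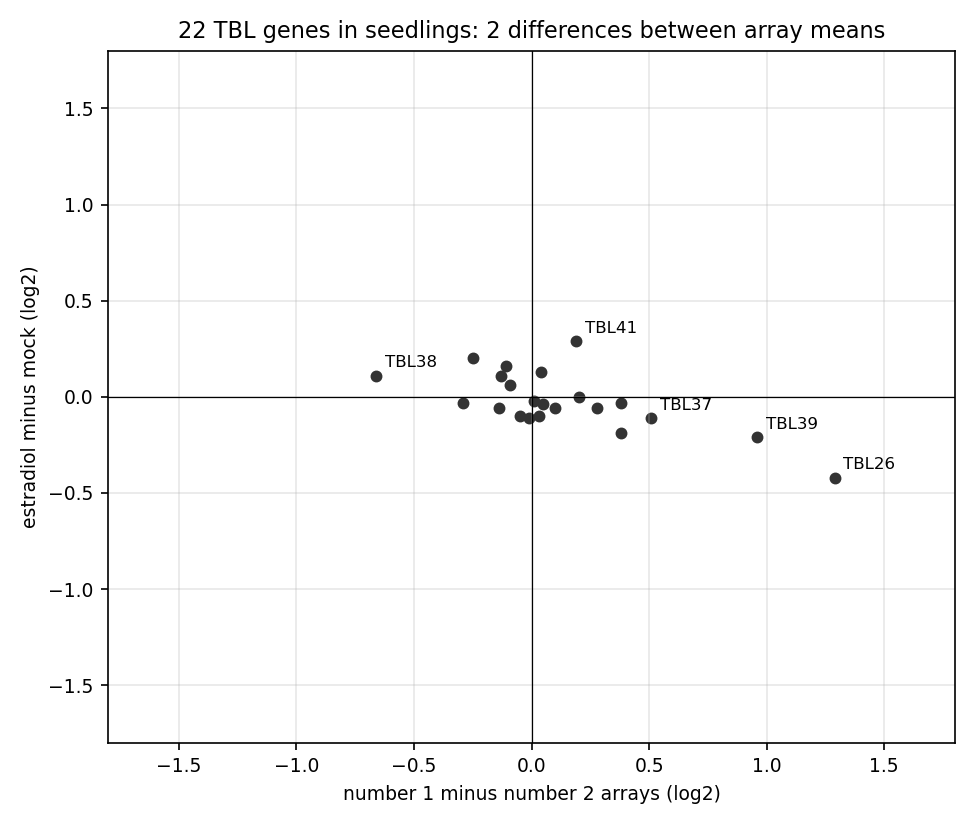
Each point is 1 of the 22 TBL genes in seedlings: the x axis gives the mean of the number 1 arrays minus the mean of the number 2 arrays, and the y axis the mean of the estradiol arrays minus the mean of the mock arrays, both in log2 units over 4 arrays. TBL26 at 1.29 and TBL39 at 0.96 lie far out along x, while no gene lies beyond 0.42 in size along y.

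The second comparison set protoplasts with 35S:ORE1 against WT protoplasts, to see a response without estradiol. Here the 7 measurable TBL genes did not move together: 1 rose, 1 fell and the others did not pass. TBL23, the mannan O-acetyltransferase gene, rose 1.77-fold and TBL41 fell 2.44-fold. Higher calls made up 3.00% of all tested probe sets and lower calls 0.771%, and each member count is a single gene. Without overlap, 1 of the 16 was higher (TBL23), against 10.8% of all, and 3 were lower (TBL37, TBL41 and TBL45), against 12.6% of all. For the 9 of the 16 at the lowest value no change could be measured, so these counts rest on the 7 above it. Those 9 also fix the median change of the members at 0. The median of all tested probe sets was 0 too.

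TBL23 read 4.51 and 4.43 in WT and 5.37 and 5.23 in 35S:ORE1 protoplasts. Both 35S:ORE1 arrays lay above both WT arrays. The change was 0.83 ± 0.14 (SE, log2; limma adjusted p = 0.0319), or 0.86 within number 1 and 0.80 within number 2, and 0.0178 was the adjusted p with the number as a block. Changes as large or larger upward were shown by 4.31% of all tested probe sets. After quantile normalization the change was 0.46 (adjusted p = 0.408), and the call was also lost after median centring (0.65, adjusted p = 0.0547), with only protoplast arrays in the fit (adjusted p = 0.104) and with a trend in the spread (adjusted p = 0.0873). It was lost too when either WT array, either 35S:ORE1 array or either mock array was left out, though the change stayed between 0.76 and 0.90 on leaving out each of the 8 arrays (adjusted p = 0.0345 to 0.186).

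The other mannan members could not be measured beside it. TBL25 and TBL26 lay at 2.19 on both number 1 and 2.18 on both number 2 protoplast arrays.

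TBL41 read 8.29 and 7.88 in WT and 7.05 and 6.55 in 35S:ORE1 protoplasts. Both 35S:ORE1 arrays lay more than 0.8 below the lower WT array. The change was -1.29 ± 0.22 (SE, log2; limma adjusted p = 0.0327), with -1.24 within number 1 and -1.33 within number 2, and an adjusted p of 0.00511 with the number as a block. Of all tested probe sets, 0.385% fell as far or farther in mean, and of the 134 called lower, 36 did. The call was lost after quantile normalization (-1.03, adjusted p = 0.117), with only protoplast arrays in the fit (adjusted p = 0.293) and without any 1 array other than the number 1 array of 35S:ORE1 (-1.04 to -1.49, adjusted p = 0.0599 to 0.151).

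TBL45 and TBL37 also read lower with 35S:ORE1, without passing. TBL45 read 7.62 and 7.78 in WT and 6.64 and 7.18 in 35S:ORE1 protoplasts, with no overlap but a wider spread in the latter. Its change was -0.79 ± 0.22 (SE, log2; limma adjusted p = 0.159), -0.98 within number 1 and -0.61 within number 2. With the number as a block it fell past the threshold (adjusted p = 0.0495), which brought the members called lower to 2 of 16, against 3.01% of all, with 1 of 16 higher, against 4.72%. TBL37 read 10.38 and 10.15 in WT and 9.87 and 9.79 in 35S:ORE1 protoplasts, a change of -0.43 ± 0.24 (SE, log2; limma adjusted p = 0.695, and 0.0992 with the block). Beside these, all 5 listed mesophyll markers read lower in mean with 35S:ORE1, with a median of -0.45, and none passed. The antenna protein gene LHCB4.2 differed by -0.61, PORB by -0.59, PSAN by -0.45, RCA by -0.42 and LHCB4.1 by -0.33 (limma adjusted p = 0.635 for RCA, 0.677 for LHCB4.1 and 1 for the others). LHCB4.2 read 4.44 and 4.32 in WT and 4.22 and 3.32 in 35S:ORE1 protoplasts. PSAN lay at the lowest value on 2 of the 4 protoplast arrays, and PORB within 0.5 of it on 3. Within number 1 the differences of LHCB4.2, PSAN and PORB were only -0.21, -0.08 and -0.14, against -1.01, -0.81 and -1.03 within number 2. RCA differed by -0.52 and -0.32, and LHCB4.1 by -0.26 and -0.40. The share of all probe sets reading lower in mean is not given here. The part of cell makeup in the TBL differences was not tested.

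**Figure D3:**
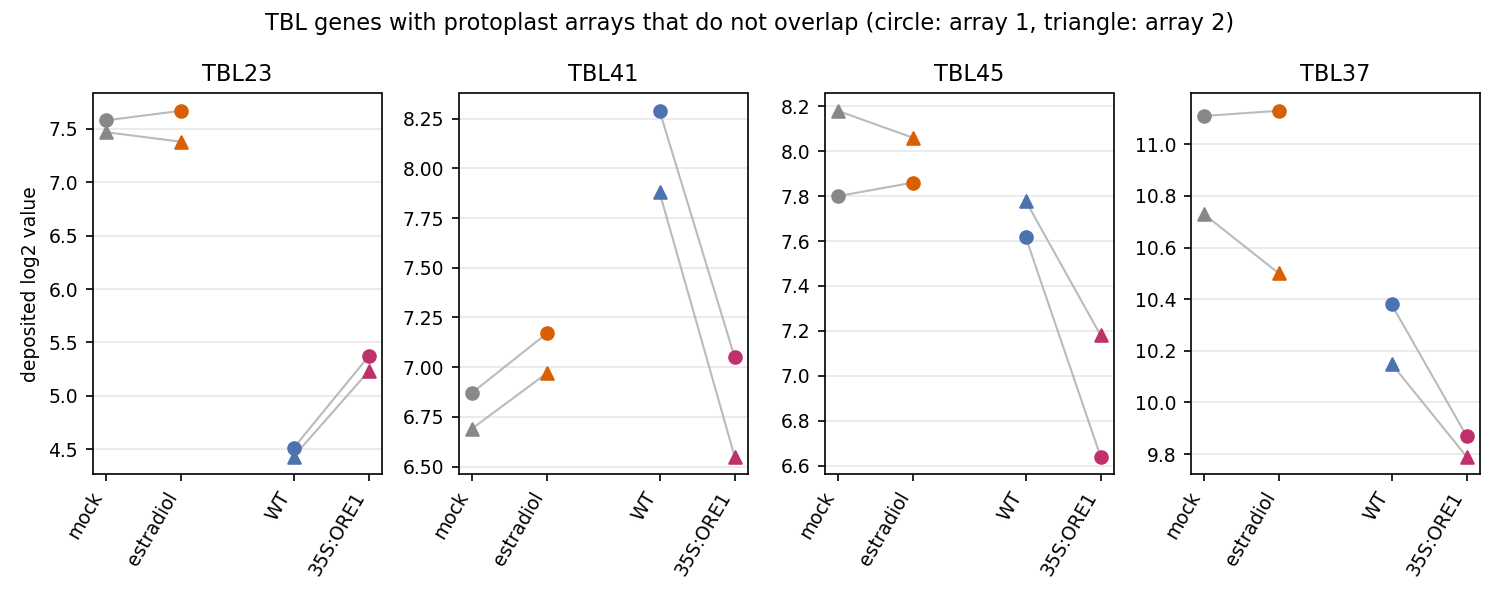
Deposited log2 values (y axis, a separate range in each panel that does not start at 0) of TBL23, TBL41, TBL45 and TBL37 in the 4 groups (x axis); circles are number 1 arrays, triangles number 2 arrays, and grey lines join arrays of 1 number within a system. In protoplasts both lines slope up for TBL23 and down for the other three, while in seedlings those of TBL41 slope up and those of the others run in different directions; only TBL23 and TBL41 in protoplasts passed the test.

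The remaining 3 measurable members did not pass. TBL16 read 7.24 and 6.99 in WT and 7.24 and 7.28 in 35S:ORE1 protoplasts, where its number 1 values are exactly equal, so its groups touch. TBL18 read 6.38 and 5.91 in WT and 6.53 and 6.24 in 35S:ORE1 protoplasts, a change of 0.24 ± 0.21 (SE, log2). The groups of TBL18 overlapped. TBL32, the 1 xylan member above the lowest value, read 4.46 and 3.85 against 3.98 and 4.19, with the numbers moving in opposite directions (-0.49 and 0.34). As in seedlings, its values may include another gene.

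**Figure D4:**
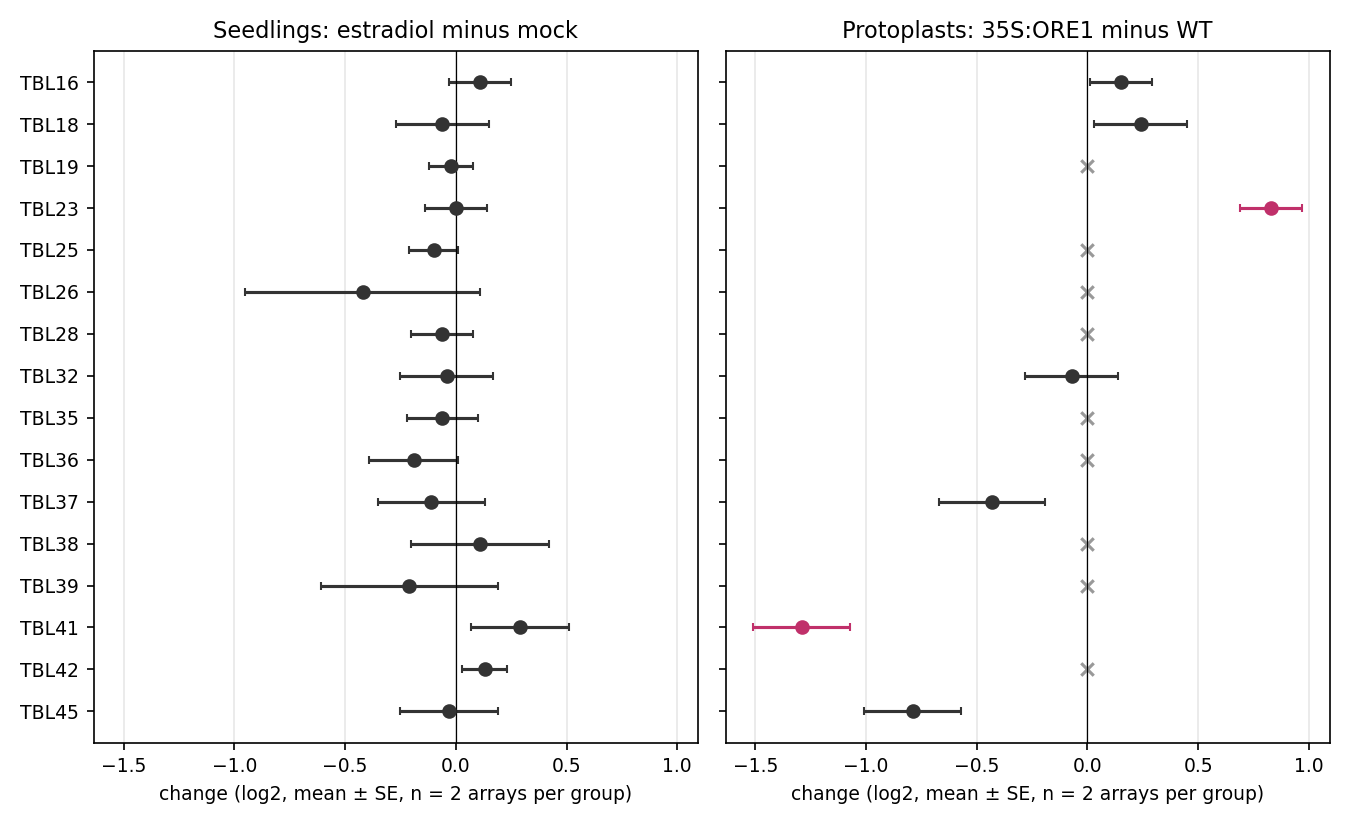
Change in log2 units (x axis) for the 16 tested TBL genes (y axis) in seedlings, estradiol minus mock (left), and protoplasts, 35S:ORE1 minus WT (right); points are differences of group means and bars are SE from limma (n = 2 arrays per group). Coloured points passed an adjusted p of 0.05, namely TBL23 at 0.83 and TBL41 at -1.29 in protoplasts; grey crosses mark the 9 tested genes at the lowest value on all protoplast arrays.

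The third comparison tested whether the change itself differed between the systems, as the seedling change minus the protoplast change. No TBL gene passed, where 1.62% of all tested probe sets did. For the tested members at the lowest protoplast value, this difference only repeats the seedling change. In limma's test 2 of 16 had an unadjusted p under 0.05, TBL41 and TBL23, a share of 12.5% beside 8.78% of all tested probe sets. For TBL41, with a change of 0.29 in seedlings that did not pass and -1.29 in protoplasts, the difference was 1.58 ± 0.32 (SE, log2; limma adjusted p = 0.0961). With the number as a block it passed (adjusted p = 0.0138), where 2.80% of all tested probe sets did. For TBL23 the difference was -0.83 ± 0.20 (adjusted p = 0.177, and 0.0538 with the block). Tissue, plant age, time and way of raising ORE1 differ between the systems, array processing may differ too, and these cannot be told apart.

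Other wall genes, among them those of lignin, cellulose and secondary wall regulation, were looked up in 10 lists with 136 genes. Of these, 10 have a listed probe set and 9 were tested. Only CSLC4, CSLC6 and HCT of the 9 differed at all between WT and 35S:ORE1 protoplasts. The others read exactly the same within each number, so none of them could be called. None of the 9 rose in protoplasts, against 3.00% of all, and 1 fell, against 0.771%. This was CSLC4, which encodes the synthase of the xyloglucan backbone, the glucan chain that carries xyloglucan's side chains. CSLC4 read 7.17 and 6.74 in WT and 5.53 and 5.40 in 35S:ORE1 protoplasts, with all 35S:ORE1 values below all WT values. The change was -1.49 ± 0.19 (SE, log2; limma adjusted p = 0.00951, and 0.0245 with the block), and the call was lost with only protoplast arrays fitted (adjusted p = 0.154) and without the number 2 array of 35S:ORE1 (-1.43, adjusted p = 0.0502). In seedlings it changed by 0.14 ± 0.19, and the difference between the systems was 1.63 ± 0.27 (SE, log2; limma adjusted p = 0.0480). That difference lost its call in 10 of 14 alternatives, the replicate block among them (adjusted p = 0.0609). Left out singly, each of the 8 arrays but the number 2 WT array ended it (adjusted p = 0.104 to 0.245).

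CSLC6, of the same synthase family, read 6.11 and 5.34 in WT and 6.44 and 5.38 in 35S:ORE1 protoplasts, overlapping groups, while CSLC5 and CSLC12 lay at the lowest value. Of the xylan list, IRX15 and IRX15-L, needed for normal xylan, lay at the lowest value in protoplasts, as did CSLA3 of the mannan list. The xylan synthase gene IRX10 and the pectin list's GAUT15 lay little above it, with WT means of 2.34 and 2.47. HCT, of lignin synthesis, read 11.36 and 11.44 in WT and 10.38 and 11.00 in 35S:ORE1 protoplasts, a change of -0.71 ± 0.25 (SE, log2) that did not pass (limma adjusted p = 0.277). No gene of these lists passed in seedlings. The lists for acetyl donor supply, acetylesterases, cellulose synthesis, secondary wall regulators, xylem cells and epidermis with trichomes held no gene with a listed probe set and were not analysed here.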

How the data were processed

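Per the submitters' processing notes, GCRMA and RMA were used, with no version and no statement of which arrays each was applied to. The authors deposited log2 values per probe set. The probe table supplied with the platform gave gene symbols, and RefSeq's gene table (TAIR10.1) gave locus tags and synonyms. RefSeq sequences of the members were not used here.

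After leaving out controls, probe sets with log2 5 or more on 2 or more arrays entered the test. R 4.3.3 with limma 3.58.1 was used, with moderated two-sided tests from eBayes on an lmFit model. A call needed a p under 0.05 after Benjamini-Hochberg adjustment over 17388 probe sets. The 4 group means formed 1 fit without a block, leaving 4 residual degrees of freedom, or 2 once the replicate number entered as a block within each system. With 2 against 2 arrays, exact permutation allows no p under 0.333, so it was not used. The fit was checked on simulated data with known changes and independent noise. These held no link between arrays of 1 number and no exactly equal values. That check therefore cannot decide between the fits with and without a block.

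Replicate numbers come from the sample titles. Around the group means, arrays of 1 number deviated together, with a correlation of 0.656 for seedlings and 0.787 for protoplasts. With 2 pairs and no stated batch, the fit without a block was kept as the main one.

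Members and lists were chosen with earlier results of these data known. Values per array were given for members passing in any contrast, the 4 of largest moderated t and the 3 of highest mean per system, and some others chosen after their values were seen. From the other lists, members that passed were given, and others as levels. Alternatives changed the block, scaling, arrays fitted, filter and spread model, and left out each array in turn. The number of arrays limits the precision.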

Additional observations from a re-analysis of the deposited data

How the results depend on the processing

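The number of TBL probe sets called in protoplasts was 2, TBL23 and TBL41. It was 0 after quantile normalization and with only protoplast arrays fitted, 1 after median centring (TBL41) and 1 with a trend in the spread (TBL41). It ranged from 0 to 1 on leaving out each array in turn, and the replicate block gave 3. Without a filter and with a filter at log2 6 it stayed at 2. The count for a difference between the systems was 0, and the replicate block gave 1 (TBL41). In seedlings it was 0 under each alternative run. Median centring moved all protoplast changes by -0.17. The protoplast changes of TBL23, TBL41, TBL45 and TBL37 ran over 0.46 to 0.90, -1.54 to -1.03, -1.06 to -0.53 and -0.61 to -0.32. Only scaling could have turned their direction, and neither quantile normalization nor median centring did. The block, the filter, the spread model and the seedling arrays leave these changes as they are. Leaving out 1 protoplast array cannot turn groups that do not overlap. In seedlings TBL26 ran from -1.11 to 0.28. The count of members at the lowest protoplast value stayed at 15 with a margin of 0.5. Leaving out 1 array leaves its group with a single one, assumed to vary like the other groups. Counting all probe sets of a gene was not run, as each member has 1, and no promoter or protein features were computed. The array values carry no measure of signal over background, so a low seedling reading sets no bound.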

Other observations

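Beyond the members named by symbol, 2 genes of the family have probe sets listed under their locus tag, and RefSeq's synonyms give their family names. AT5G06700, called TRICHOME BIREFRINGENCE there, read 9.23 and 8.84 in mock and 8.75 and 8.65 in estradiol seedlings. The estradiol arrays lay below both mock arrays, and the change was -0.33 ± 0.31 (SE, log2; limma adjusted p = 1). In protoplasts it read 4.25 and 3.53 in WT and 4.25 and 3.62 with 35S:ORE1, where the number 1 values are exactly equal. AT2G31110, called TBL40, has 2 probe sets. The one of higher mean read 9.08 and 9.11 in mock and 8.76 and 8.82 in estradiol seedlings, a change of -0.30 ± 0.21 (SE, log2; limma adjusted p = 1), and the other changed by -0.04 ± 0.11. In protoplasts both lay between 2.19 and 2.70 on all arrays. Neither gene is counted among the 22 members.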
